A study of Mus musculus with 6 samples.

Results

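Fragments of the glutamate tRNA with anticodon CTC were followed in brain of the inbred mouse strain C57BL/6, with 3 libraries from young mice aged 3 months and 3 libraries from aged mice of 22 months. The labels give no other treatment or genotype for either age. Small RNA was sequenced and counted as tags of tRNA-derived small RNAs (tDRs), each with its own ID and the names of the tRNAs or tRNA precursors it is listed under. An ID was taken as a Glu-CTC fragment when every parent name was Glu-CTC and at least 1 of them was a mature tRNA; 19 of the 591 IDs in the table met this rule. The labels do not say that libraries of one age came from separate animals. The p-values thus set the age difference against the spread between these libraries, which may not be that between mice. The table holds tRNA fragments only, so markers of brain cell types were not available to check the tissue.

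A tRNA carries an amino acid to the ribosome and reads the codon through its anticodon, and tRNA-Glu-CTC reads a glutamate codon. Cleavage of a mature tRNA in or near the anticodon loop parts it into a 5′ and a 3′ piece, and cuts elsewhere give shorter fragments; ribonucleases such as angiogenin make some of these cuts under stress. 5′ fragments of tRNA-Glu are abundant in small RNA libraries of many tissues. The series title names a fragment of tRNA-Glu that ageing induces, and the comparison of the ages asks which fragments differ.

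The parent sequences define which fragments can be told apart. The table names 13 mature Glu-CTC tRNAs, which have 5 different sequences, and 4 Glu-CTC precursors. One sequence, called Glu-CTC-1 here, is shared by 9 tRNA names, Glu-CTC-1-1 to Glu-CTC-1-9, so a fragment of it cannot be assigned to 1 gene. Glu-CTC-2-1 differs from it by 2 substitutions, Glu-CTC-4-1 by 6 and Glu-CTC-5-1 by 9. Glu-TTC-3-1, the nearest tRNA of the other glutamate anticodon, also differs from it by only 2 substitutions. Glu-CTC-3-1 stands apart: it matched Glu-CTC-1-1 at 47 of 80 aligned positions and the lysine tRNA Lys-CTT-3-1 at 68 of 78, so by sequence it is nearer to that lysine tRNA. This pair is printed to show the likeness, as the mature tRNA is deposited, 5′ to 3′, with the anticodon (positions 34 to 36, counted from 1 at the 5′ end) in capitals.
Glu-CTC-3-1: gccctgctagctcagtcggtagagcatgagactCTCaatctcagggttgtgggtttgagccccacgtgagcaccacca
Lys-CTT-3-1: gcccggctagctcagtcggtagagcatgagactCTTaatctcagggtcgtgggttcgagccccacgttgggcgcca

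The 19 fragments fell into 6 sets by their parents. A set of 10 IDs was listed under the same 12 parents, the 9 Glu-CTC-1 tRNAs and the precursors of 3 of them. AS-tDR-000542 was listed under these and Glu-CTC-2-1. A further 4 IDs named Glu-CTC-2-1 alone, 2 named Glu-CTC-3-1 and its precursor, 1 named Glu-CTC-4-1, and 1 named Glu-CTC-4-1 and Glu-CTC-5-1. The fragment sequences are not in the table, and the parents place them only loosely. A stretch of 15 bases or more that all listed parents share and no other tRNA in the table holds existed for 18 of the 19 members and for 85.4% of all IDs. AS-tDR-000624, outside the rule, names Glu-CTC-2, Glu-CTC-4, Glu-CTC-5 and Glu-TTC-3 but not Glu-CTC-1. Whether the listing names every tRNA that a fragment matches was not tested, so the members are exclusive to Glu-CTC only as far as the listing goes. Neither end of any member is known. The IDs of one set can overlap, and none of them counts as a replicate of another.

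Listed tags totalled 44156 to 57425 per library at 3 months and 71121 to 96130 at 22 months. The smallest count above 0 in a library, called the listing minimum here, was between 8 and 17 tags. A 0 can thus be a level below that minimum or an absence, and the data cannot tell which. A total of 13 members were listed in all 6 libraries and 6 had a 0 in at least 1. Levels are CPM, which set each library's listed tags to the same total, adjusted between libraries by the TMM method, and are relative to the listed tRNA fragments. They cannot tell more fragments of one tRNA from fewer of the others, nor a change in the cells from a change in the makeup of the tissue.

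Glu-CTC fragments together held a larger part of the listed tags in every library at 22 months, while Glu-TTC fragments did not. The 19 Glu-CTC IDs took 6.49%, 5.29% and 5.61% of listed tags in replicates 1, 2 and 3 at 3 months, and 6.78%, 8.79% and 8.24% at 22 months. The lowest library at 22 months, replicate 1, was only just above the highest at 3 months. The mean went from 5.80% ± 0.622 to 7.94% ± 1.04 (SD, n = 3 each), with p = 0.1 by an exact two-sided permutation test, the smallest p that 3 against 3 libraries allow.

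On the TMM-scaled level the Glu-CTC sum was 58618, 51123 and 50741 CPM at 3 months, and 63947, 101596 and 95674 CPM at 22 months. The means were 53494 ± 4441 and 87072 ± 20245 CPM (SD, n = 3 each), a 1.63-fold difference. The log2 difference between the ages was 0.70 (SE 0.22), short of the threshold of edgeR's quasi-likelihood test (adjusted p = 0.0776 over 77 sums per anticodon or parent class, of which 13.0% passed). It did pass without 22 month replicate 1 (log2 difference 0.99, edgeR adjusted p = 0.0279) and in DESeq2 (0.87, adjusted p = 0.0135). DESeq2 took its scaling from the sums, and edgeR with TMM factors from the sums gave 0.84 (edgeR adjusted p = 0.0603). With library size as the only scaling the log2 difference was 0.45 (edgeR adjusted p = 0.154).

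Glu-TTC is the other glutamate isoacceptor, and also has 19 IDs in the table. Its fragments took 3.15%, 2.98% and 2.86% of listed tags at 3 months and 3.22%, 2.69% and 1.91% at 22 months, so that the ages overlapped (exact permutation p = 0.5). Its summed level differed by 0.01 on the log2 scale (SE 0.19; edgeR adjusted p = 0.961). The ratio of Glu-CTC to Glu-TTC tags, which needs no scaling between libraries, was 2.06, 1.78 and 1.96 at 3 months and 2.11, 3.27 and 4.32 at 22 months. Replicate 1 at 22 months was again next to the 3 month libraries. The mean log2 ratio went from 0.95 ± 0.11 to 1.63 ± 0.52 (SD, n = 3 each), a difference of 0.68 with an exact two-sided permutation p = 0.1, the smallest possible. Of the 15 Glu-TTC IDs tested singly, 0 were past the threshold in edgeR, and their median log2 difference was -0.08. At an unadjusted edgeR p under 0.05, 2 were higher and 1 lower, against 15.7% and 9.79% of all IDs. Without overlap between the ages, 3 were higher at 22 months and 1 lower, against 19.4% and 20.0%. The 3 higher were AS-tDR-000603 (log2 difference 1.86, edgeR adjusted p = 0.295), AS-tDR-000586 (1.63, edgeR adjusted p = 0.0566) and AS-tDR-007221 of Glu-TTC-3 (1.14, edgeR adjusted p = 0.0575).

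**Figure D1:**
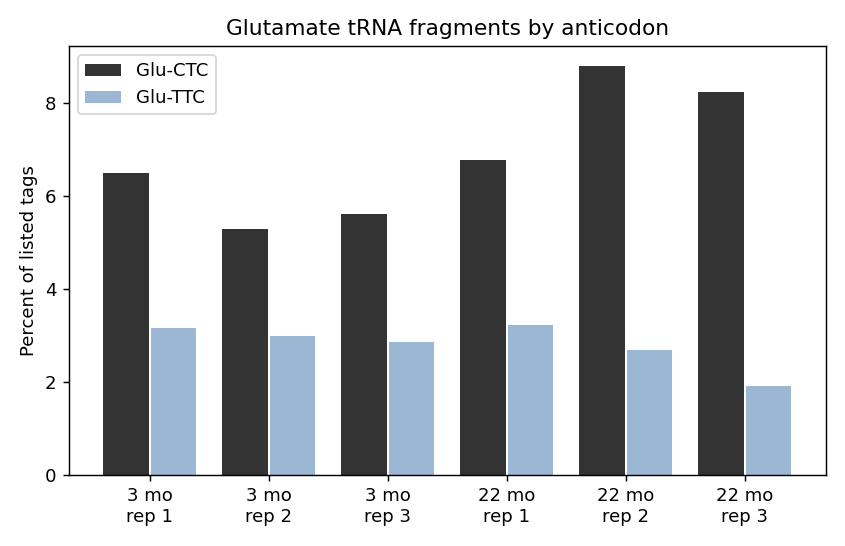
Bars show the percent of listed tags (y axis, from 0) held by Glu-CTC and by Glu-TTC fragments in each of the 6 libraries (x axis, age and replicate). Glu-CTC lies between 5.29% and 6.49% at 3 months and between 6.78% and 8.79% at 22 months, while Glu-TTC overlaps between the ages.

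The Glu-CTC sum hides members that go in opposite directions. Of the 19 members, 17 passed the filter on low counts and were tested. In edgeR's quasi-likelihood test with Benjamini-Hochberg adjustment over all 439 IDs tested, 0 members rose and 1, AS-tDR-002583, fell; over all IDs 4.78% rose and 1.82% fell. At an unadjusted p under 0.05 there were 7 higher and 2 lower members, against 15.7% and 9.79% of all IDs, so the count of lower members was near that of all IDs. DESeq2 called 6 members higher and 2 lower, against 13.4% and 8.66% of all IDs, and edgeR restricted to the 290 IDs above 0 in all libraries called 4 higher and 2 lower, against 15.2% and 6.90%. Without overlap between the ages in CPM, 8 of the 17 tested members were higher at 22 months and 5 lower, where all tested IDs gave 19.4% and 20.0%. The 8 include AS-tDR-011760 and the 5 include AS-tDR-013428, each with a 0 in at least 1 library. The median log2 difference was 0.65 over the members tested and -0.16 over all IDs tested. With library size as the only scaling these medians were 0.42 and -0.35, so the members moved down together with all IDs.

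Most fragments of the Glu-CTC-1 sequence had higher levels at 22 months. Of the 10 IDs listed under the 12 Glu-CTC-1 parents, 7 had each 22 month library above every 3 month library. Among all 439 tested IDs, 19.4% were higher without overlap in this way. For the 7, the ratios of the means lay between 1.57 and 3.82. None of the 7 passed the edgeR threshold. AS-tDR-001260, the most abundant member, was at 9358, 8867 and 9751 CPM at 3 months and at 13137, 19258 and 13683 CPM at 22 months. Its 3 month libraries lay close together, and each 22 month library was above them. The log2 difference was 0.72 (SE 0.22; edgeR adjusted p = 0.094).

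AS-tDR-001262 was at 7597, 5183 and 4527 CPM at 3 months and at 9833, 19559 and 14737 CPM at 22 months. In replicates 2 and 3 at 22 months it exceeded AS-tDR-001260, which was the higher of the pair in every library at 3 months. Its log2 difference was 1.35 (SE 0.34; edgeR adjusted p = 0.0595). AS-tDR-007247 was at 4813, 5975 and 5981.5 CPM at 3 months and at 7471, 10441 and 8415 CPM at 22 months. Its difference was smaller, 0.65 on the log2 scale (SE 0.21; edgeR adjusted p = 0.108). AS-tDR-007241 was at 3822, 3298 and 2007 CPM at 3 months and at 4976, 10610 and 9058 CPM at 22 months, which is 1.43 on the log2 scale (SE 0.38; edgeR adjusted p = 0.0678). Its replicate 1 at 22 months lay nearer to the 3 month libraries than to replicates 2 and 3 of its own age.

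The largest differences among these 7 belonged to AS-tDR-000547 and AS-tDR-007519. AS-tDR-000547 was at 4026, 2763 and 1782 CPM at 3 months and at 5520, 12101 and 15120.1 CPM at 22 months, so the highest library at 3 months and the lowest at 22 months differed far less than the means did. The means were 2857 ± 1125 and 10914 ± 4909 CPM (SD, n = 3 each), a ratio of 3.82, and the log2 difference was 1.93 (SE 0.48; edgeR adjusted p = 0.058). AS-tDR-007519 was at 2532, 2313 and 1188 CPM at 3 months and at 4512, 8059 and 9756 CPM at 22 months, which is 1.89 on the log2 scale (SE 0.41; edgeR adjusted p = 0.0523). For both, the adjusted p lay within 0.01 of the threshold of 0.05, and over the other settings and libraries left out it ranged from 0.00339 to 0.24 and from 0.00132 to 0.204. AS-tDR-009999, the remaining member of the 7, was at 2110 to 3427 CPM at 3 months and at 3769, 5305 and 11001 CPM at 22 months, highest in replicate 3. Its log2 difference was 1.22 (SE 0.44; edgeR adjusted p = 0.141), and 0.74 without that library.

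The other 3 IDs of the same 12 parents did not share this direction. AS-tDR-002583 was at 4859.9, 4476 and 4711 CPM at 3 months and at 1818, 2634 and 1710.4 CPM at 22 months. The ages were well apart, and the 3 month libraries differed little among themselves. It fell by 1.19 on the log2 scale (SE 0.22; edgeR adjusted p = 0.0491). No ID tested had a lower adjusted p in this fit, so all 29 of its calls lay between 0.0491 and 0.05. The adjusted p of AS-tDR-002583 ranged from 2.61e-05 in DESeq2 to 0.191 with a replicate block. Its call was lost when any one library other than 22 month replicate 2 was left out. AS-tDR-011670 was close to it in level, at 4529.6, 4176 and 4732 CPM at 3 months and at 1951, 2334 and 972 CPM at 22 months. Its log2 difference was -1.35 (SE 0.34; edgeR adjusted p = 0.058). AS-tDR-000060 was at 5678, 1992 and 4629.5 CPM at 3 months and at 3171, 3152 and 4283 CPM at 22 months, so that its 3 month libraries enclosed those at 22 months. Its log2 difference was -0.22 (SE 0.40; edgeR adjusted p = 0.764) and turned to 0.10 without 3 month replicate 1.

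**Figure D2:**
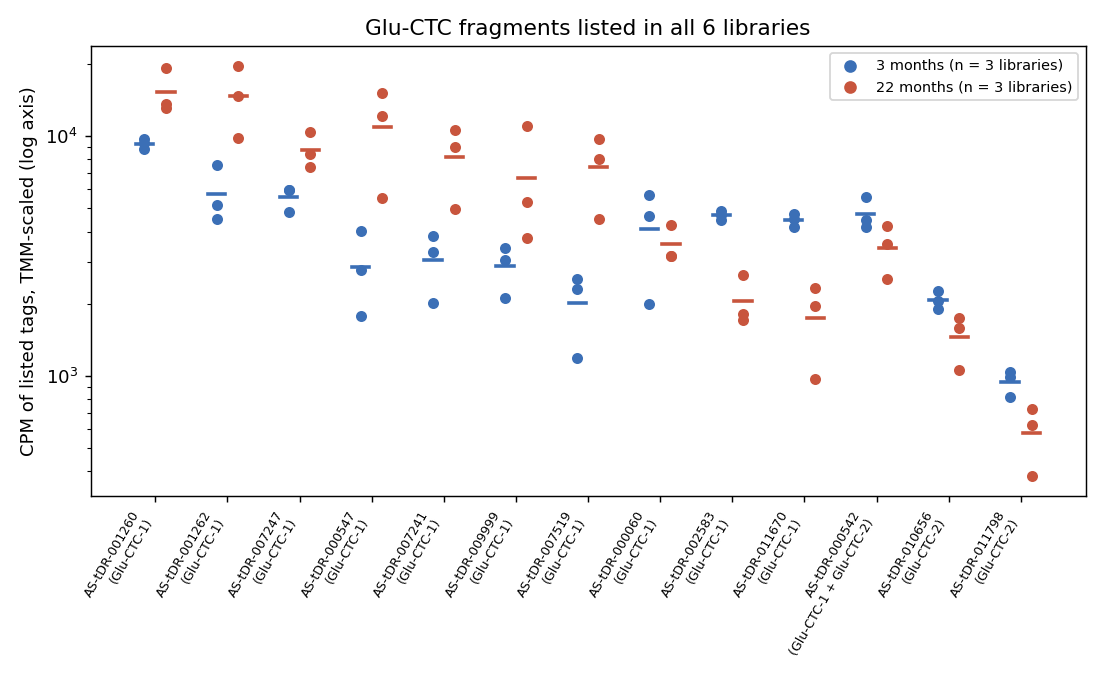
Points give the TMM-scaled CPM of listed tags (log axis) of the 13 Glu-CTC members listed in every library, 3 libraries at each age, and short lines give the mean of each age. The 7 Glu-CTC-1 members from AS-tDR-001260 to AS-tDR-007519 lie higher at 22 months in each library, whereas AS-tDR-002583 and AS-tDR-011670 and the Glu-CTC-2 members lie lower.

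Of the 5 fragments that name Glu-CTC-2-1, which differs from Glu-CTC-1 by 2 substitutions, none had all 22 month libraries above those at 3 months. All 4 IDs listed under Glu-CTC-2-1 alone had a negative log2 difference (median -0.61), as did 252 of all 439 IDs tested. Of the 4, 0 passed (edgeR, 0 also at an unadjusted p under 0.05). In CPM, 3 of the 4 were lower without overlap between the ages, as were 20.0% of all tested IDs. These 3 included AS-tDR-013428, whose tag counts overlapped. AS-tDR-010656, the most abundant of the 4, was at 2060.4, 2270.2 and 1905 CPM at 3 months and at 1579, 1744 and 1054 CPM at 22 months (log2 difference -0.51, SE 0.24; edgeR adjusted p = 0.237). AS-tDR-011798 was at 819 to 1038 CPM at 3 months and at 383 to 730 CPM at 22 months (-0.71, SE 0.29; edgeR adjusted p = 0.2). AS-tDR-013428 had 15, 14 and 11 tags at 3 months and 14, 0 and 0 at 22 months, at or near the listing minimum throughout, so its fitted log2 difference of -2.004 (SE 1.78; edgeR adjusted p = 0.537) carries little, and it was -6.96 without 22 month replicate 1. AS-tDR-010654 had 10 to 16 tags at 3 months and 17, 0 and 28 at 22 months (-0.35, edgeR adjusted p = 0.88), and turned to 0.23 without 22 month replicate 2. AS-tDR-000542, shared by Glu-CTC-1 and Glu-CTC-2-1, was at 4184, 4455 and 5592 CPM at 3 months and at 4206, 3549 and 2545 CPM at 22 months. The ages overlapped through 22 month replicate 1, and its log2 difference was -0.47 (SE 0.25; edgeR adjusted p = 0.291). These differences leaned on 22 month replicate 3, the lowest library for these 3 fragments: without it they were -0.25 for AS-tDR-010656, -0.42 for AS-tDR-011798 and -0.22 for AS-tDR-000542.

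Summed, the 10 Glu-CTC-1 IDs had 14.1, 11.3 and 12.6 times the tags of the 4 Glu-CTC-2-1 IDs at 3 months, and 20.6, 39.4 and 48.8 times at 22 months. This ratio was formed after the values of the members were seen and was not tested.

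The remaining Glu-CTC tRNAs gave few tags. AS-tDR-011760, of the lysine-like Glu-CTC-3-1, had 38, 20 and 0 tags at 3 months and 49, 138 and 140 at 22 months. On the scaled level these were 598, 428 and 0 CPM against 650.2, 1659.99 and 1916 CPM, so replicate 1 at 22 months was barely above replicate 1 at 3 months. Its log2 difference of 2.02 was the largest fitted value among the members, with a standard error of 1.05 (edgeR adjusted p = 0.279). AS-tDR-015061, of the same parents, was listed at 0 in all 3 libraries at 3 months and in replicate 1 at 22 months, and had 27 and 48 tags in replicates 2 and 3; it was not tested. The 6 IDs shared between Glu-CTC-3-1 and Lys-CTT tRNAs, which are outside the rule, had log2 differences between -1.08 and -0.01, and 0 of the 6 passed (edgeR, 0 also at an unadjusted p under 0.05). AS-tDR-010085 of Glu-CTC-4-1 was listed in 3 of 6 libraries with 11 to 20 tags, and its log2 difference of 1.004 (SE 2.18; edgeR adjusted p = 0.797) lay between 0.42 and 6.39 with 1 library left out, the highest without 3 month replicate 3. AS-tDR-012903, of Glu-CTC-4-1 and Glu-CTC-5-1, had 11 tags in 3 month replicate 3 and was at 0 in the other 5 libraries; it was not tested.

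**Figure D3:**
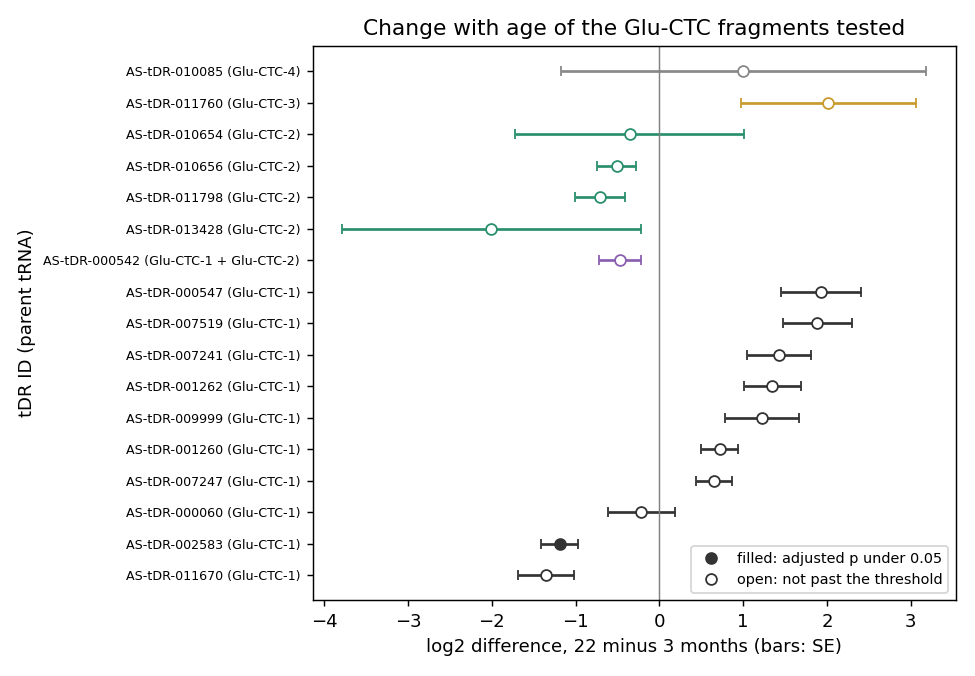
Each point is the log2 difference between 22 and 3 months of 1 of the 17 Glu-CTC IDs tested, with its standard error as a bar, ordered by parent tRNA in colour. Only AS-tDR-002583, at -1.19, is filled as past the threshold; Glu-CTC-1 members span -1.35 to 1.93 and the 4 Glu-CTC-2 members are all below 0.

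The makeup of the Glu-CTC tags differed between the ages, on a measure that no scaling between libraries can move. The 10 Glu-CTC-1 IDs made up 85.8%, 83.1% and 81.6% of Glu-CTC tags at 3 months and 87.8%, 92.0% and 92.7% at 22 months. As shares of Glu-CTC tags, 4 members were higher in all 22 month libraries, 7 were lower, and 8 overlapped. Such shares were not formed for other IDs, so these counts have no background. The 7 lower include AS-tDR-010654 and AS-tDR-013428, which had few tags and a 0 in at least 1 library at 22 months. For AS-tDR-010654 the nearest libraries of the 2 ages held 0.402% and 0.400%. AS-tDR-001260 and AS-tDR-007247 overlapped: their mean shares were 17.5% ± 1.63 and 10.6% ± 2.04 at 3 months and 17.9% ± 3.24 and 10.3% ± 1.44 at 22 months (SD, n = 3 each). The mean shares of both thus differed little between the ages. Within the 22 month libraries they went down from replicate 1 to replicate 3, from 20.5% to 14.3% and from 11.7% to 8.80%. AS-tDR-000547 had 6.87%, 5.40% and 3.51% of Glu-CTC tags at 3 months and 8.63%, 11.9% and 15.8% at 22 months, and AS-tDR-001262, AS-tDR-007241 and AS-tDR-007519 were the others with higher shares. AS-tDR-002583 had 8.29%, 8.76% and 9.29% at 3 months and 2.84%, 2.59% and 1.79% at 22 months. AS-tDR-011670 had 7.73%, 8.17% and 9.33% against 3.05%, 2.30% and 1.02%. At 3 months these last 2 fragments each held a larger share than AS-tDR-000547 in every library, and at 22 months a smaller one. Shares of one total depend on each other, so these counts are a description.

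**Figure D4:**
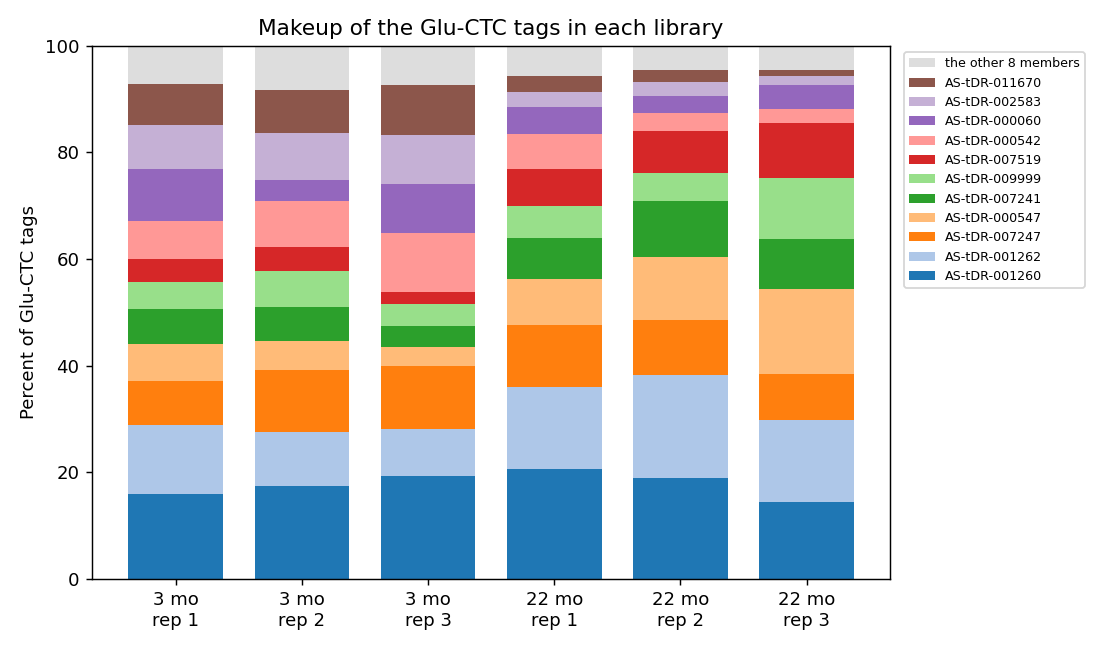
Stacked bars give the percent of all Glu-CTC tags (y axis) held by the 11 most abundant members and by the other 8 together in each of the 6 libraries (x axis). The segments of AS-tDR-000547 and AS-tDR-007519 are larger at 22 months, and those of AS-tDR-002583 and AS-tDR-011670 shrink from 7.73% or more to 3.05% or less.

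Members were grouped by the sign of their log2 difference and correlated across the same 6 libraries. Among the 13 members listed throughout, the 7 with a positive log2 difference correlated with each other at a Pearson r of 0.60 to 0.99 of log2 CPM, and 5 of the 6 with a negative one at 0.72 to 0.95. Between these groups r lay between -0.99 and -0.53. AS-tDR-000060, the sixth, correlated with no other member beyond -0.28 to 0.09. The 6 points share 2 ages and 1 set of libraries. As the groups were formed by direction, the signs of r within and between them are partly built in, and the values are a description. Of 31 other anticodon sums listed in every library, those most like the Glu-CTC sum were Gly-GCC (r = 0.87), Val-CAC (0.83), Gly-CCC (0.74), Leu-CAA (0.72) and Leu-TAA (0.67), over the same 6 libraries. Gly-GCC reached 108441 CPM in 22 month replicate 3, against 33413 and 50425 in replicates 1 and 2. For Glu-CTC the highest library was replicate 2, so the likeness did not extend to the order of the 22 month libraries.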

How the data were processed

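Per the labels' protocols, total RNA of brain was extracted with Trizol and its small RNA read from one end on an Illumina NextSeq. FastQC, cutadapt, Novoalign and mm10 appear without versions in the submitters' processing notes; what counted the tags, and from which level a value was listed, is not given in the sources used here. Per the file headers, the deposited values are tag counts, given per tDR ID. They are whole numbers whose totals differ, and were used as raw counts although the table's title calls it normalized. The columns named Age and WT, numbered 1 to 3, were read as 22 and 3 months, replicates 1 to 3, since the names differ from the sample titles.

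The 3257 table lines repeat an ID's counts for each parent, so each of 591 IDs was counted once. The 22 month libraries were compared with the 3 month libraries by edgeR 4.0.16 under R 4.3.3 (filterByExpr with a minimum count of 10, TMM, quasi-likelihood test, Benjamini-Hochberg adjustment over 439 IDs). Standard errors are the log2 difference over the square root of F. Tags summed per anticodon or parent class kept the library sizes and TMM factors of the single IDs, except in DESeq2, which scaled the sums itself. Shares and log2 ratios had exact permutation tests. DESeq2 1.42.0 and limma 3.58.1 (voom) were alternatives. The spread between libraries includes counting error. pandas 2.3.3 and matplotlib 3.10.9 were used.

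Named members were those past the threshold, the 5 most abundant, and the 3 highest and 3 lowest log2 differences, with the others described briefly by parent; the 5 most similar anticodon sums were named by Pearson r. The members and lists were chosen with earlier results of these data known. The sequence and gene positions of Glu-CTC-1 are not reported here.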

Additional observations from a re-analysis of the deposited data

How the results depend on the processing

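The number of Glu-CTC IDs past the threshold, 1 in edgeR, was 0 with library size only, 0 when scaled to the smallest listed count, 0 with no filter on low counts, 8 in DESeq2, 5 in limma-voom and 6 among IDs above 0 in all 6 libraries; for all IDs these counts were 0, 0, 0, 97, 46 and 64, against 29. With one library left out they were 0 to 1 and 0 to 14. With a replicate block both counts were 0, the log2 difference of the Glu-CTC sum was 0.68 (edgeR adjusted p = 0.143), and the share and the log2 ratio to Glu-TTC, 2.14 percentage points and 0.68, had p = 0.25 by an exact sign-flip test, the smallest 3 pairs allow. Deviations from the age means correlated at -0.46, 0.04 and -0.34 for replicate numbers 1, 2 and 3, and at -0.07 to 0.44 between different numbers. Libraries of the same number were thus not more alike by this measure. The deviations within an age depend on each other, and pairing was not tested. The log2 difference of the Glu-CTC sum was 0.45 with library size only, 0.49 when scaled to the smallest listed count, 0.87 in DESeq2 and 0.58 to 0.99 with one library left out, and was positive in all 14 alternatives run; the share difference lay between 1.71 and 2.72 percentage points and the ratio difference between 0.44 and 0.96. Library size only moved the median of all IDs by -0.21 and scaling to the smallest listed count by -0.16. AS-tDR-000060 ranged from -0.47 to 0.10 over the fits that leave out 1 library, positive only without 3 month replicate 1, and AS-tDR-010654 between -1.16 and 0.23, positive only without 22 month replicate 2; the other 15 members tested kept their sign wherever fitted. The cause of these changes was not tested. Adding IDs shared with other anticodons, an alternative chosen after seeing the data, changed no call. No ID was listed under Glu-CTC or Glu-TTC precursors only, so adding such IDs was not run. Depth limits the members near the listing minimum, where a 0 need not be a true zero.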
